A study of Mus musculus with 24 samples.

Results

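Interferon-stimulated genes are the genes that cells switch on after interferon, and 34 of them were followed here in the blood and cerebral cortex of mouse neonates. The members were taken by symbol from a list drawn up with earlier results of these data known, and all 34 were found among the 48709 genes of the count table. Blood held most of them at far higher levels than cortex. After gestational exposure to nano-sized particulate matter (nPM), most members tested were lower in both tissues, but none passed an adjusted p of 0.05. In each tissue that direction over the group was lost when a single control male library was left out. That library was picked as the highest for most members, so leaving it out favors higher fold changes. Some members, such as Ifit3, Irf1 and Ifit2 in blood, stayed lower without it.

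Interferons are secreted when a cell senses foreign nucleic acid. Type I and type III interferons act through receptors that signal to a complex with STAT2 and IRF9, which binds the interferon-stimulated response element in promoters. Interferon gamma acts mainly through the gamma-activated site. The products restrict viral entry, translation and budding, and in the brain they are made by microglia, endothelium and neurons. In blood, leukocytes are one source.

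The libraries were ribosome-depleted RNA-seq of whole blood and of dissected cerebral cortex. Each tissue gave 12 libraries, 3 of every combination of sex with exposure. The dams breathed nPM or filtered air during pregnancy, at a dose labelled 300 mg/m3 that the methods give in μg/m3. Each session lasted 5 h, and there were 3 in a week. The pups were C57BL/6J by the labels and C57BL/6NJ by the methods. Their age was 3 to 5 days by the labels and day 5 by the methods, and the labels name no transgene or deletion. The study states that blood and cortex came from the same animals, but the labels do not link libraries to animals or litters, so the tissues could not be paired. All p-values here measure only the spread between these samples.

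The cortex libraries held 22301409 to 33804371 counts on genes and the blood libraries used held 13595647 to 21895536. Globin genes took 66.2 to 76.8% of the blood counts and at most 0.0678% of the cortex counts. Libraries are named by the V numbers of their labels. The control female blood library V2 stood apart, with counts on 22461 genes where the others had 13254 to 17273, and with 50.1% on globin genes. It was left out of the blood comparisons, as the study left out 1 such sample, and results with it are given beside the main ones. Neuron markers summed to 6745 to 7694 CPM (counts scaled to the library total) in cortex and to at most 36.4 in blood. Red cell markers summed to 695168 to 791210 CPM in blood. A floor of 3 counts corresponded to 0.0887 to 0.135 CPM in cortex and 0.137 to 0.221 CPM in blood, and it covers counting error only.

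The 34 members lay on 13 chromosomes, with 6 on chromosome 5, 4 on chromosome 3 and 3 on chromosome 19. Another annotated gene overlapped 14 of them, among these Irf1, Irf7, Irf9, Usp18, Oas2, Oasl1, Gbp2 and Gbp7, and the strandedness of the counting is not given in the sources used here, so reads of overlapping genes cannot be told apart. Counts of Ifit3, Oas1a, Gbp2, Gbp3 and Gbp7 are uncertain as well, because each has a close copy. The promoter sequence of 26 members was in RefSeq (build GRCm38.p6), as a window of 300 bases from 250 before the start site to its first 50. The interferon-stimulated response element was searched for as GAAANNGAAA on both strands. It was found in 16 of the 26 members, or 61.5%, and in 3.99% of the 27025 genes with a window. The gamma-activated site, TTCNNNGAA, was found in 8 members, or 30.8%, and in 9.55% of all genes. Both were present in 4 members. A further 61 interferon-stimulated genes, listed for comparison, had the response element in 21 of 48, or 43.8%. A match is a description of the letters, and no match says only that these letters were not in the window.

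The stretches around the response element are shown for 8 members whose levels are described below. Capitals mark the match, read in the direction of the gene, so that TTTC marks the element on the other strand.
Isg15, chr4:156200860-156200911, minus strand: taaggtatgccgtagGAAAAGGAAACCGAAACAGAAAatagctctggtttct
Ifit1, chr19:34640770-34640828, plus strand: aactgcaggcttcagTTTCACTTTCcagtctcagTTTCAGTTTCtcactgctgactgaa
Ifit3, chr19:34583358-34583431, plus strand: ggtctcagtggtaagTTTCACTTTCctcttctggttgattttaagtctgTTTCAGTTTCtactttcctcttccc
Rsad2, chr12:26456548-26456587, minus strand: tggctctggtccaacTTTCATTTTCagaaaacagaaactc
Oas3, chr5:120777710-120777749, minus strand: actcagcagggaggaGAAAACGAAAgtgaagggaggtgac
Oas1a, chr5:120907526-120907560, minus strand: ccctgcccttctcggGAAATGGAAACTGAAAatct
Gbp7, chr3:142530268-142530307, plus strand: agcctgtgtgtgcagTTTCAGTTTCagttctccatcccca
Stat2, chr10:128270261-128270300, plus strand: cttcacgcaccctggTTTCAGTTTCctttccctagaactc
Isg15 held 3 overlapping elements, Ifit1 and Ifit3 held 2 separate ones, and Oas1a held 2 that overlapped just before the start site. Irf1, Irf7, Irf8, Irf9, Ifit2, Oasl1, Oasl2, Ifi35, Ifi44 and Xaf1 had a window and no match to it.

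**Figure D1:**
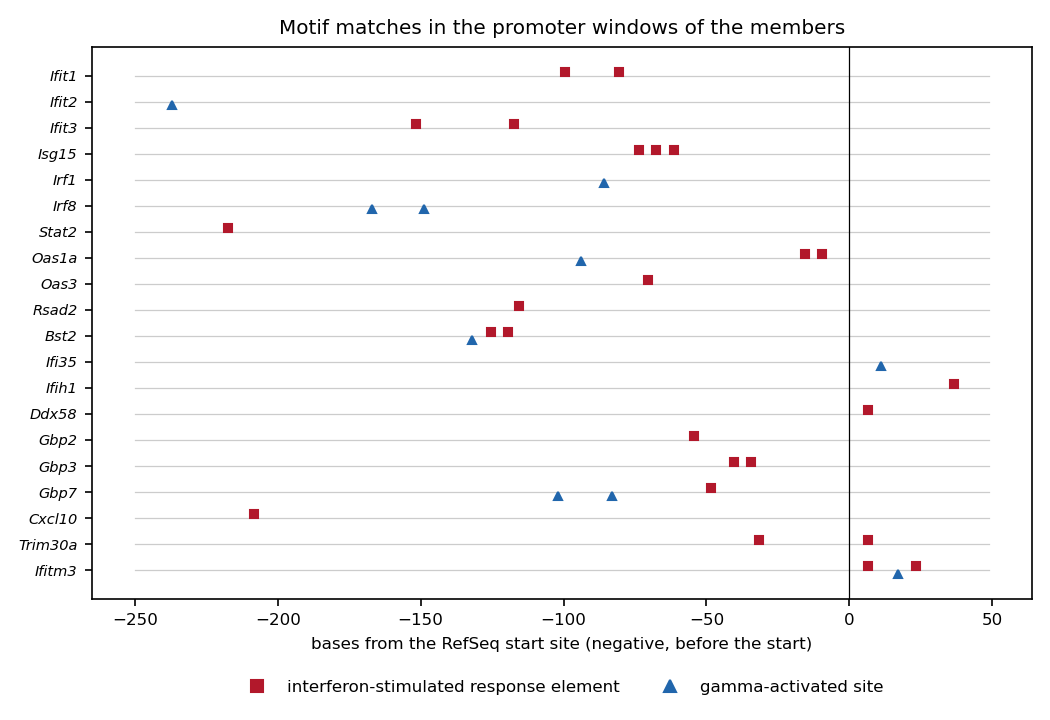
Positions of the interferon-stimulated response element (squares) and the gamma-activated site (triangles) in the promoter windows of the members with a match, in bases from the RefSeq start site. The response element lay before the start in most of the 16 members that held it, with 3 overlapping matches in Isg15 and matches after the start in Ifih1, Ddx58, Trim30a and Ifitm3.

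The first comparison asked where the members are expressed. Levels of different genes were compared as RPKM, reads scaled by gene length and library total, counted over the reads off the globin genes, in the 11 blood and 12 cortex libraries. Rsad2, which encodes viperin, an inhibitor of viral replication, was the highest member in blood, at a mean of 2244 ± 425 RPKM (SD, n = 11) against 0.424 ± 0.189 (SD, n = 12) in cortex. Its blood libraries ran from 1781 through a median of 2107 to 3032, and its cortex libraries from 0.183 through 0.383 to 0.822, so the tissues did not overlap. Rsad2 (chr12:26442753-26456452, mm10, minus strand) drew 33090 to 88979 counts in each of the 11 blood libraries and ranked between 10 and 23 among the genes other than globins. It made up 0.771 to 1.31% of the counts off the globin genes.

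Isg15 (chr4:156199424-156200818), a ubiquitin-like protein that is attached to other proteins, was the next in blood, at 409 ± 173 RPKM (SD, n = 11), from 222 through a median of 341 to 840. In cortex it was at 0.392 ± 0.185 RPKM (SD, n = 12), from 0.141 to 0.742. Irf7 (chr7:141262706-141266481), the transcription factor that drives type I interferon genes, came next in blood, at 68.0 ± 44.0 RPKM (SD, n = 11), from 36.9 through 54.9 to 194. Its cortex level was 0.133 ± 0.0644 RPKM (SD, n = 12), from 0.0564 to 0.280. The blood levels of these 3 genes did not overlap one another, and each was above every cortex library of the same gene.

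The antiviral effectors did not share 1 level in blood. Oas3, an oligoadenylate synthetase whose product activates RNase L, was at 48.4 ± 12.7 RPKM (SD, n = 11), from 32.3 through 46.1 to 75.2, and in cortex at 0.0156 RPKM with some libraries at 0. Its relatives Oas1a and Oas2 were at 0.561 and 0.362 RPKM in blood, and the OAS-like genes Oasl2 and Oasl1 at 28.1 and 1.099. Ifitm3, a membrane protein that blocks viral fusion, was at 52.2 ± 23.3 RPKM (SD, n = 11) in blood, and Ifit1, which binds foreign RNA caps, at 29.1 ± 14.2. The Mx genes were low in both tissues, with Mx1 at 0.400 and Mx2 at 0.0889 RPKM in blood and 0.0740 and 0.172 in cortex. The annotation of the count table types Mx2 as a polymorphic pseudogene. Cxcl10, the chemokine that draws T cells, and Ifi44 were at or near 0 in most blood libraries.

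Cortex had another order of levels. Ifitm3 was its highest member, at 5.02 ± 1.44 RPKM (SD, n = 12), from 3.24 through 4.79 to 8.67. Ifit2, a relative of Ifit1, followed at 4.28 ± 0.334 RPKM (SD, n = 12), from 3.88 through 4.17 to 4.97, against 2.51 ± 0.899 (SD, n = 11) in blood, from 1.12 through 2.45 to 3.81. Stat2, the signal transducer of type I interferon, was at 3.91 ± 0.407 RPKM (SD, n = 12), from 3.25 through 4.04 to 4.38, against 1.37 ± 0.804 (SD, n = 11) in blood, from 0.597 through 1.02 to 3.01. The cortex ranges of these 3 genes overlapped. On this scale every cortex library of Ifit2 and Stat2 was above every blood library.

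Over the 34 members, every blood library was above every cortex library for 20, the reverse held for 2 (Ifit2 and Stat2), and the tissues overlapped for 12. Of the 33580 genes with a count, 4.52% had every blood library higher and 44.9% had every cortex library higher. The ratio of the mean levels was 5291 for Rsad2, 3093 for Oas3, 1045 for Isg15, 513 for Irf7, 212 for Oasl2 and 192 for Ifit1, and 2.86 and 1.71 towards cortex for Stat2 and Ifit2. Ifi44, Mx2 and Gbp3 also had a lower mean in blood on this scale, with overlap. These are bulk samples, so fewer cells of a type and less RNA per cell cannot be told apart. In blood Rsad2 alone was at 1786 to 4380 CPM, where the neutrophil markers summed to 59.6 to 150 and the red cell markers to 695168 to 791210. Which blood cells held the members was not tested.

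**Figure D2:**
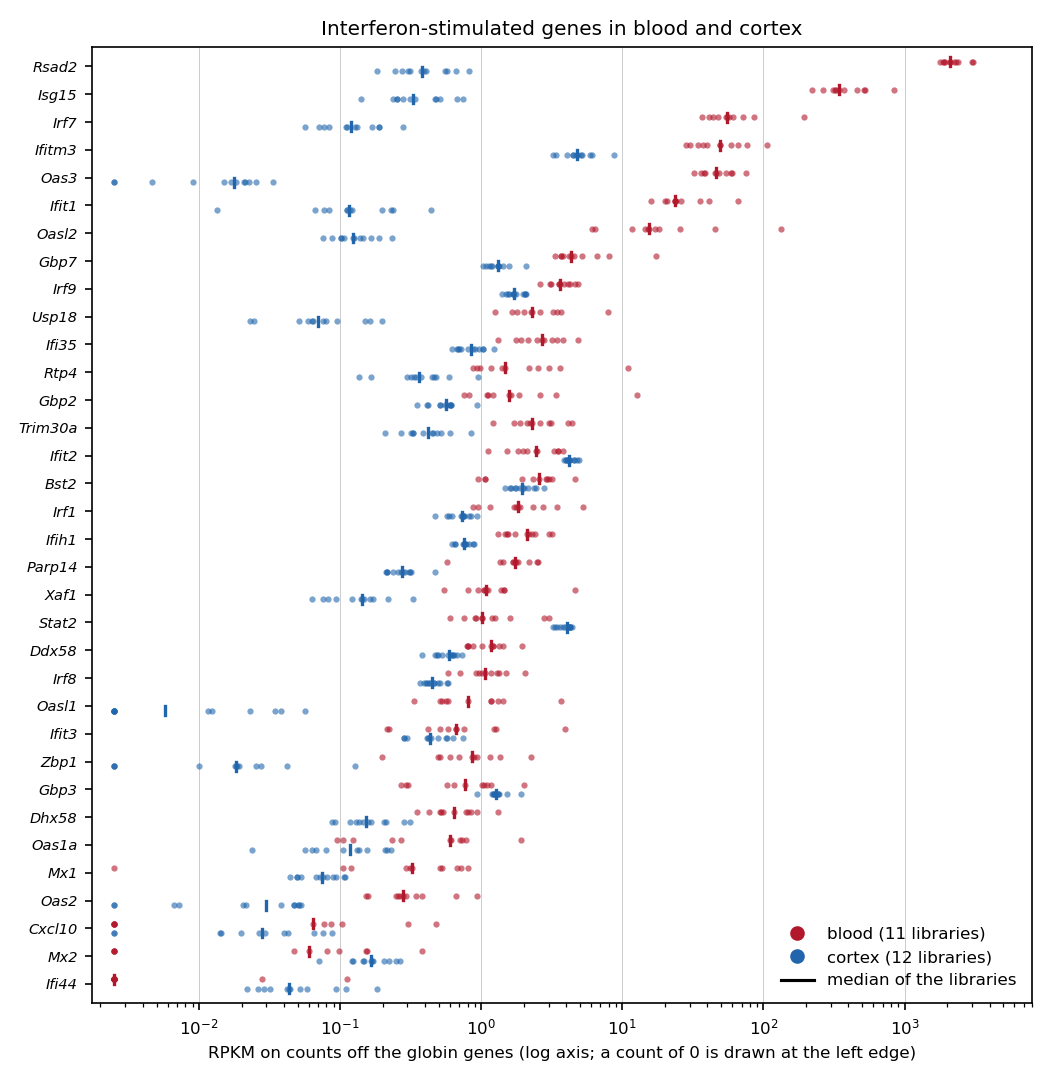
Level of each member in each blood (11) and cortex (12) library, as RPKM on counts off the globin genes, on a log axis with a count of 0 at the left edge and bars for medians. Rsad2, Isg15 and Irf7 lead in blood, where Rsad2 averaged 2244 RPKM, and Ifit2 and Stat2 are the 2 members with every cortex library above every blood library.

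The tissue difference was tested between 5 control blood and 6 control cortex libraries with edgeR and TMM scaling, adjusted for sex. All 28 members that could be tested were called higher in blood at an adjusted p of 0.05, where 79.4% of all 17610 genes were called in either direction. The median log2 difference, blood over cortex, was 5.02 for the members and -0.96 for all genes. The 3 most different were Rsad2 at 14.80 ± 0.42 (SE, edgeR adjusted p = 8.53e-16), Oas3 at 14.15 ± 0.44 (edgeR adjusted p = 2.8e-15) and Isg15 at 12.77 ± 0.48 (edgeR adjusted p = 4.21e-14). The 3 least different were Stat2 at 1.41 ± 0.25 (edgeR adjusted p = 5.04e-05), Mx2 at 2.00 ± 0.77 (edgeR adjusted p = 0.0235) and Ifit2 at 2.08 ± 0.14 (edgeR adjusted p = 1.78e-10). Their direction depended on the scaling. With library totals off the globin genes in place of TMM, Stat2 came to -1.13, Mx2 to -0.54 and Ifit2 to -0.47, while Rsad2 stayed at 12.21, Oas3 at 11.57 and Isg15 at 10.18. That scaling called 23 members higher and 2 lower, with a median of 2.45 for the members and -3.48 for all genes. The share of all genes called under it is not given here, so these counts have no background beside them. The TMM factors themselves ran from 4.03 to 4.27 among cortex libraries and from 0.144 to 0.249 among blood libraries. Mx2 lost its call without V22, at 0.54 (edgeR adjusted p = 0.646), and without V8, at 1.98 (edgeR adjusted p = 0.0526). With V2 put back, 27 members were tested and all 27 were called higher, where 70.4% of all genes were called in either direction. Stat2 was then at 1.103 (edgeR adjusted p = 0.0176) and Mx2 was no longer tested. Lane and tissue were largely confounded, since lane 1 held 8 blood libraries, lane 2 held 8 cortex libraries, and lane 3 held 4 of each. With lane added to the fit, an alternative chosen after seeing the data, all 28 members were called higher, with a median of 5.33, where 63.7% of all genes were called.

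The rest of the pathway was tested in the same fit. Of the further interferon-stimulated genes, 46 of 48 tested were called higher in blood and none lower, where 27.1% of all genes were called higher and 52.3% lower. The 5 with the smallest p were Slfn2 at 7.98, Ifi209 at 10.54, Isg20 at 15.002, Oas1b at 8.75 and Sp110 at 7.10, all as log2 differences. Of 14 receptors and signal transducers tested, 11 were called higher and 1 lower, led by Il10rb at 5.23, Ptpn6 at 5.58, Ifnar2 at 4.55, Pias1 at 2.74 and Ifngr1 at 2.97. Of 15 sensors and adaptors tested, 12 were called higher and 2 lower, led by Trim25 at 4.44, Ikbke at 5.23, Mavs at 4.77, Irf5 at 4.65 and Eif2ak2 at 2.92. All these calls rest on TMM, and those with totals off the globin genes are not given here. In CPM, with globin genes in the totals, receptors summed to 556 to 592 in control cortex and 73.2 to 131 in control blood. Sensors summed to 281 to 323 and 21.7 to 41.1, and the further interferon-stimulated genes to 246 to 317 and 926 to 1530. The interferon genes themselves were nearly absent. Of 21 ligand genes, 16 had no count in any cortex library and 20 had none in any of the 11 blood libraries. Ifng was the blood exception, with at most 2 counts in a library, and no ligand had over 5 counts in a cortex library.

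Before the exposure comparisons, the libraries were compared with one another, because single libraries carried much of the variation of the group. In blood the control male V22 was the highest of the 11 libraries for 21 of 30 members, or 70%, while it was the highest for 6.03% of all genes tested. Its median log2 ratio to the blood median was 1.21 over the members, and 17 of them were over 2-fold. In cortex the control male V24 was the highest of the 12 libraries for 20 of 29 members, or 69%, against 15.5% of all genes, with a median log2 ratio of 0.63 and 7 members over 2-fold. Of the 26 members tested in both tissues, 19 were highest in V22 among blood libraries and 18 in V24 among cortex libraries. Both held for 13, which is 68.4% of those highest in V22 and 72.2% of those highest in V24. The 13 were Ddx58, Gbp2, Gbp3, Gbp7, Ifi35, Ifit1, Ifitm3, Irf7, Oasl2, Parp14, Rtp4, Trim30a and Xaf1. Counts of 19 and 18 among 26 give an overlap of about this size without any link between the 2 libraries. V22 and V24 were the control males of lane 3 in their tissues. Whether they came from 1 animal is not given by the labels, so they may not be separate observations.

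The same libraries were high in further genes of the response. V22 was the highest for 34 of 49 further interferon-stimulated genes, or 69.4%, and V24 for 22 of 48, or 45.8%. Among the receptors and signal transducers, V22 was the highest for 2 of 13, or 15.4%, and V24 for 1 of 15, or 6.67%. Among the sensors and adaptors, V22 was the highest for 4 of 15, or 26.7%, and V24 for 4 of 17, or 23.5%. The summed level in V22 was 1.21 times the median of the other blood libraries for the receptors and 1.31 times for the sensors, against 0.97 and 1.02 times in V24 among the cortex libraries. The nPM female V3 was another blood library with high values, over 2-fold for 6 members, Oasl2, Rtp4, Gbp7, Ifih1, Ifit1 and Ifitm3. Ifih1, the sensor of long double-stranded RNA, was at 8.82 TMM-scaled CPM there, the CPM after edgeR's correction for composition, and Rsad2 was at 4383, or 1.66 times the blood median. The shares of all genes over 2-fold in V22, V24 and V3 are not given here, so the counts of members over 2-fold have no background beside them. Markers of leukocytes in V22 were within the values of the other 10, with monocyte markers at 37.6 CPM against 23 to 54.4, B cell markers at 40.1 against 9.35 to 43.2 and plasmacytoid dendritic cell markers at 15.7 against 4.09 to 17.4. These were 1.13, 1.58 and 1.71 times the median of the other 10, with T and NK cell markers at 1.41 times and neutrophil markers at 0.952 times. In V3 the B cell, T and NK cell and plasmacytoid markers were at 0.319, 0.515 and 0.37 times the median of the others. Its monocyte and platelet markers were at 1.45 and 1.94 times. In V24 the microglia markers summed to 299 CPM, above the 182 to 253 of the other cortex libraries, and the red cell markers to 672 against 252 to 701. The part of these cells in the high values was not tested.

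**Figure D3:**
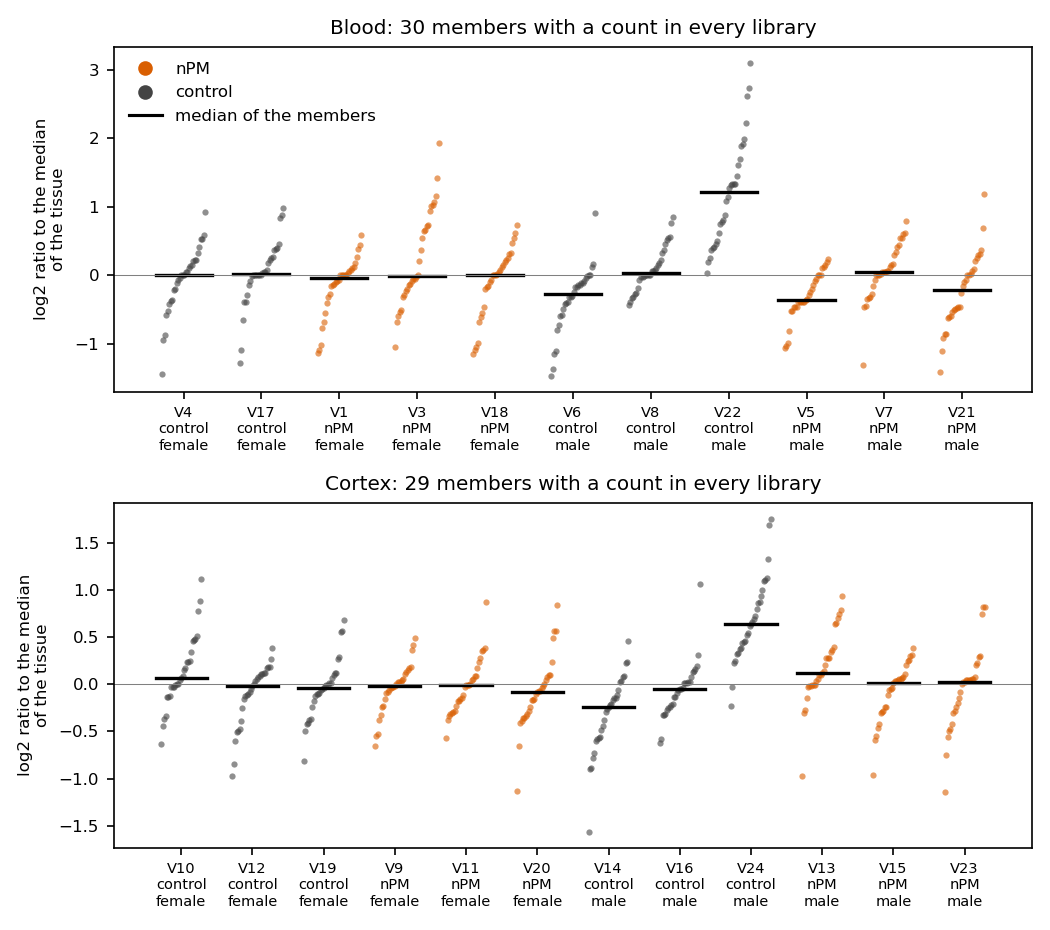
Log2 ratio of each member to its median over the libraries of the tissue, by library, for the 30 members of blood (top) and 29 of cortex (bottom) with a count in every library. Orange points are nPM, grey points control and bars the medians over members, which reach 1.21 in V22 and 0.63 in V24.

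The main question was whether gestational nPM changed the members in blood. Model 1 had exposure, sex and the RNA integrity number (RIN), in 6 nPM and 5 control libraries. Of 30 members tested, 27 were lower after nPM, or 90% where 49.6% of all genes were lower, with a median log2 fold change of -0.40. An unadjusted p under 0.05 was reached by 8 members, or 26.7%, all lower, against 3.11% of all genes. At the unadjusted p of 0.005 that the study used, 1 member was called against 0.17% of all genes, and at an adjusted p of 0.05 no member and 0% of genes. Without V22, 15 of the 30 were lower, the median was 0.01, 2 had an unadjusted p under 0.05, against 2.86% of all genes, and none under 0.005. With V2 put back, 18 of 30 were lower, with a median of -0.09 and no p under 0.05. With sequencing lane added, 27 were lower with a median of -0.32, and 3 had a p under 0.05, against 2.47% of all genes. No other single blood library left out brought the number lower below 22 or the median above -0.30. V22 is a control picked as the highest for most members, so a rise in the fold changes without it was favored by that choice.

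Ifit3 (chr19:34583531-34588731), which works with Ifit1 on foreign RNA, was the called member. Its control libraries were at 0.215, 0.354, 0.626 and 0.628 TMM-scaled CPM, with V22 at 1.79. Its nPM libraries were at 0.0936, 0.101, 0.246, 0.264, 0.306 and 0.320. The groups overlapped, with 2 nPM libraries below every control. The log2 fold change was -1.72 ± 0.51 (SE, edgeR unadjusted p = 0.00325, adjusted p = 1), and the exact two-sided permutation test of the means gave p = 0.0346 where 0.00433 is the smallest it can give. Without V22 the fold change was -1.12 (edgeR unadjusted p = 0.033), and the call at 0.005 was also lost without V17, V21, V5 or V7, at log2 fold changes of -1.88, -1.65, -1.46 and -1.73. With V2 put back it was -1.36 (edgeR unadjusted p = 0.0756). The gene is a weak one in blood, with 2 to 11 counts in every library but V22, which had 40.

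Irf1, a transcription factor of the interferon gamma response, had control values of 2.11, 2.12, 2.12 and 2.87 TMM-scaled CPM and 5.46 in V22. Its nPM values were 0.909, 1.28, 1.28, 2.01, 2.29 and 2.55. The 3 nPM females and 1 nPM male lay below every control. The log2 fold change was -0.84 ± 0.27 (SE, edgeR unadjusted p = 0.00547, adjusted p = 1; exact permutation p = 0.0736), and -0.58 without V22 (edgeR unadjusted p = 0.0495).

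Gbp2 (chr3:142620602-142638008), a guanylate-binding GTPase that acts on intracellular pathogens, was at 0.849, 0.864, 1.2 and 1.79 TMM-scaled CPM in the controls and at 8.28 in V22, while the nPM libraries ran from 0.515 through a median of 1.05 to 1.53. V22 stood alone and the other controls overlapped the nPM libraries. The log2 fold change was -1.29 ± 0.50 (SE, edgeR unadjusted p = 0.0186, adjusted p = 1; exact permutation p = 0.242) and shrank to -0.26 without V22. The other members with a p under 0.05 were Irf7 at -0.76 ± 0.31, Ifit2 at -0.58 ± 0.24, Oasl1 at -1.02 ± 0.43, Stat2 at -0.69 ± 0.32 and Trim30a at -0.50 ± 0.23, as log2 fold changes with SE. Without V22 they came to -0.27, -0.50, -0.55, -0.37 and -0.36. Oasl2, at -0.96, turned to 0.40 without it. The most abundant members were at 0.05 ± 0.27 (Rsad2) and -0.03 ± 0.32 (Isg15).

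**Figure D4:**
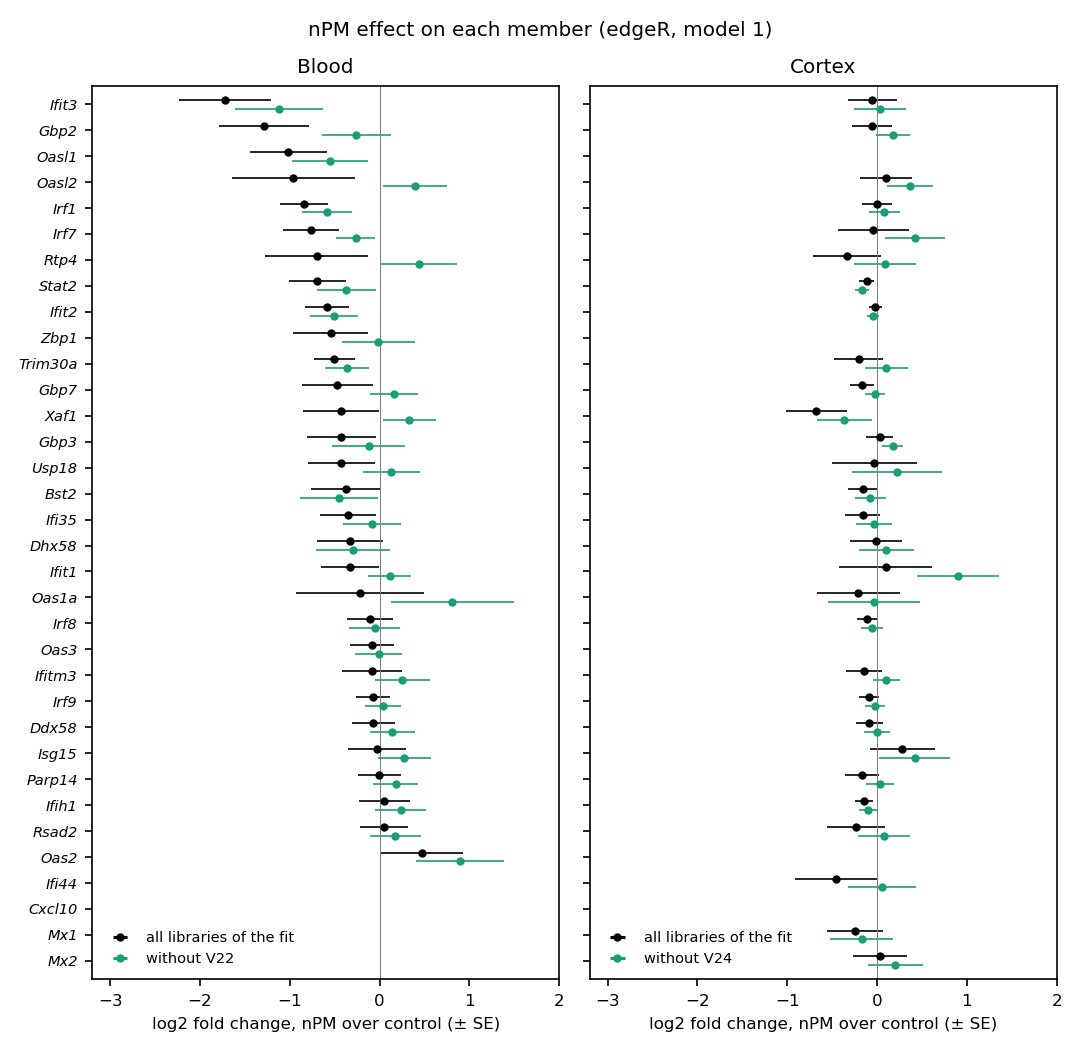
Log2 fold change of each member, nPM over control, with its SE, from edgeR model 1 in blood and cortex, in black with every library of the fit and in green without V22 (blood) or V24 (cortex). In blood the median moves from -0.40 to 0.01 and in cortex from -0.11 to 0.05 when that library is left out.

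The other pathway lists were set beside the members in blood. Of 49 further interferon-stimulated genes tested, 42 were lower, with a median log2 fold change of -0.32, and 7 had a p under 0.05, or 14.3%. Without V22, 29 of the 49 were lower with a median of -0.06. Receptors and signal transducers were lower in 8 of 13, sensors and adaptors in 12 of 15, none of them at a p under 0.05. Among blood cell markers, B cell markers were lower in 7 of 7 genes tested and T and NK cell markers in 7 of 8, with medians of -0.30 and -0.41. The smallest p of a B cell marker was that of Igll1 (edgeR unadjusted p = 0.0959). Their summed levels overlapped, at 21 to 43.2 CPM in controls and 9.35 to 42.2 after nPM for B cells, and 7.39 to 23.7 and 5.41 to 13.1 for T and NK cells. The medians of the sums were 25.4 in controls and 26.5 after nPM for B cells, and 10.7 and 8.86 for T and NK cells. The lowest sum of both lists was that of V3. Of the T and NK cell genes, Nkg7 was at -1.14 (edgeR unadjusted p = 0.0176) and Gzma at -1.14 (edgeR unadjusted p = 0.0163). Platelet markers were higher in 6 of 6, with a median of 0.23, and monocyte markers in 4 of 7, with a median of 0.39 and Fn1 at 0.47 (edgeR unadjusted p = 0.0241). Their sums ran from 152 to 274 CPM in controls and 177 to 422 after nPM for platelets, and from 23 to 37.6 and 29.6 to 54.4 for monocytes. The platelet sum of 422 was that of V3. No marker of the B cell or the T and NK cell list was at 0 in every library of a group, and the part of these cells in the result was not tested.

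In male blood, with 3 nPM and 3 control libraries, 29 of 30 members were lower after nPM, or 96.7% where 48.9% of all genes were lower, with a median log2 fold change of -0.84. An unadjusted p under 0.05 was reached by 13 members, or 43.3%, against 3.86% of all genes. Ifit3 and Ifit2 passed the unadjusted p of 0.005, or 6.67% of members against 0.33% of all genes, and no member and 0% of genes passed the adjusted p of 0.05. Ifit2 (chr19:34550694-34576419) was at 2.97, 3.89 and 3.93 TMM-scaled CPM in the control males and at 1.498, 1.94 and 2.11 in the nPM males, so the groups did not overlap. Its log2 fold change was -1.11 ± 0.32 (SE, edgeR unadjusted p = 0.00433, adjusted p = 1) and -1.06 without V22 (edgeR unadjusted p = 0.024). Ifit3 was at 0.354, 0.628 and 1.79 in the control males and at 0.0936, 0.264 and 0.306 in the nPM males, again without overlap. Its log2 fold change was -2.75 ± 0.75 (SE, edgeR unadjusted p = 0.00307, adjusted p = 1) and -1.58 without V22 (edgeR unadjusted p = 0.105). The exact permutation test gave p = 0.1 for both, the smallest that 3 against 3 can give. Without V22 only 20 of the 30 members were lower, with a median of -0.07, 1 p under 0.05, against 2.93% of all genes, and none under 0.005. The number of members under 0.005 was 0 without V6, 1 without V21 or V5, 5 without V8, where 0.481% of all genes passed, and 8 without V7, where 0.603% did. Cell markers moved in the same fit. Neutrophil markers were higher after nPM in 7 of 7 genes, with a median of 0.61 and 3 at an unadjusted p under 0.05, and summed to 59.6 to 110 CPM in the control males and 113 to 123 in the nPM males, without overlap. Fibroblast markers were higher in 6 of 6, with a median of 0.86 and 4 at a p under 0.05, among them the growth factor Igf2 at 2.23 (edgeR unadjusted p = 1.85e-05, adjusted p = 0.197), and their sums overlapped. B cell markers were lower in 6 of 7, with a median of -0.37, and T and NK cell markers in 7 of 8, with a median of -0.54. The median B cell sum was nevertheless 25.3 CPM in the control males and 37.0 in the nPM males. The part of these cells in the result was not tested.

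Of 50 further interferon-stimulated genes tested in male blood, 46 were lower, with a median of -0.71, and 15 had a p under 0.05, or 30%. Trim21 at -1.73, Nmi at -1.47, Igtp at -1.38 and Ifi209 at -1.08 had an unadjusted p under 0.005 as log2 fold changes, each with an edgeR adjusted p of 1. Female blood, with 2 control libraries after V2 was left out, was not fitted alone.

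The nPM-by-sex interaction asked whether the exposure effect differed between the sexes, as the male effect minus the female effect on the log2 scale. In blood it was negative for 25 of 30 members, or 83.3% against 46% of all genes, with a median of -0.95. An unadjusted p under 0.05 was reached by 8 members, or 26.7%, against 10.7% of all genes. Of these 1 passed 0.005, against 0.902% of genes, and no member and 0% of genes passed the adjusted p of 0.05. Without V22 the interaction was negative for 16 of 30, with a median of -0.25 and 4 p under 0.05, of which 2 were negative, against 11.5% of all genes. With V2 put back, 29 of 30 were negative with a median of -1.62.

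Oas1a (chr5:120896256-120907521), an oligoadenylate synthetase, was the member past 0.005. It was at 0.0569 and 0.108 TMM-scaled CPM in the control females and at 0.303, 0.374 and 0.4925 in the nPM females. The control males were at 0.0708, 0.393 and, in V22, 0.940, and the nPM males at 0.0528, 0.102 and 0.281. All nPM females were above both control females of the fit, while the male groups overlapped. The interaction was -4.06 ± 1.2 (SE, edgeR unadjusted p = 0.00298, adjusted p = 0.452) and -2.93 without V22 (edgeR unadjusted p = 0.0322). It also lost the call at 0.005 without V17, V21, V3 or V4, at -3.67, -3.83, -4.01 and -4.98. The control female V2, left out of this fit, held 8 counts of Oas1a, or 0.378 CPM without TMM scaling, where the nPM females were at 0.309, 0.327 and 0.492 on that scale. With V2 put back the groups of females thus overlapped, and the interaction was -4.44 (edgeR unadjusted p = 0.00198). These libraries held 1 to 10 counts of the gene, with 21 in V22.

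Oas3 (chr5:120753098-120777661) was next, at 67.2 and 99.8 TMM-scaled CPM in the control females against 59.9, 140 and 148 in the nPM females, and at 77.2, 109 and 110 in the control males against 63.3, 66.9 and 96.4 in the nPM males. The groups overlapped in both sexes. The interaction was -1.18 ± 0.40 (SE, edgeR unadjusted p = 0.00851, adjusted p = 0.452) and -1.15 without V22. Gbp7 (chr3:142530342-142550149), another guanylate-binding GTPase, was at 6.15 and 7.85 in the control females, at 6.78, 7.68 and 15.2 in the nPM females, at 6.23, 6.68 and, in V22, 25.3 in the control males, and at 4.34, 5.15 and 7.55 in the nPM males. Its interaction was -1.80 ± 0.66 (SE, edgeR unadjusted p = 0.0129, adjusted p = 0.452) and -0.74 without V22 (edgeR unadjusted p = 0.159). Among the further interferon-stimulated genes, Ifi27 was at -2.10 (edgeR unadjusted p = 0.00139, adjusted p = 0.452).

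**Figure D5:**
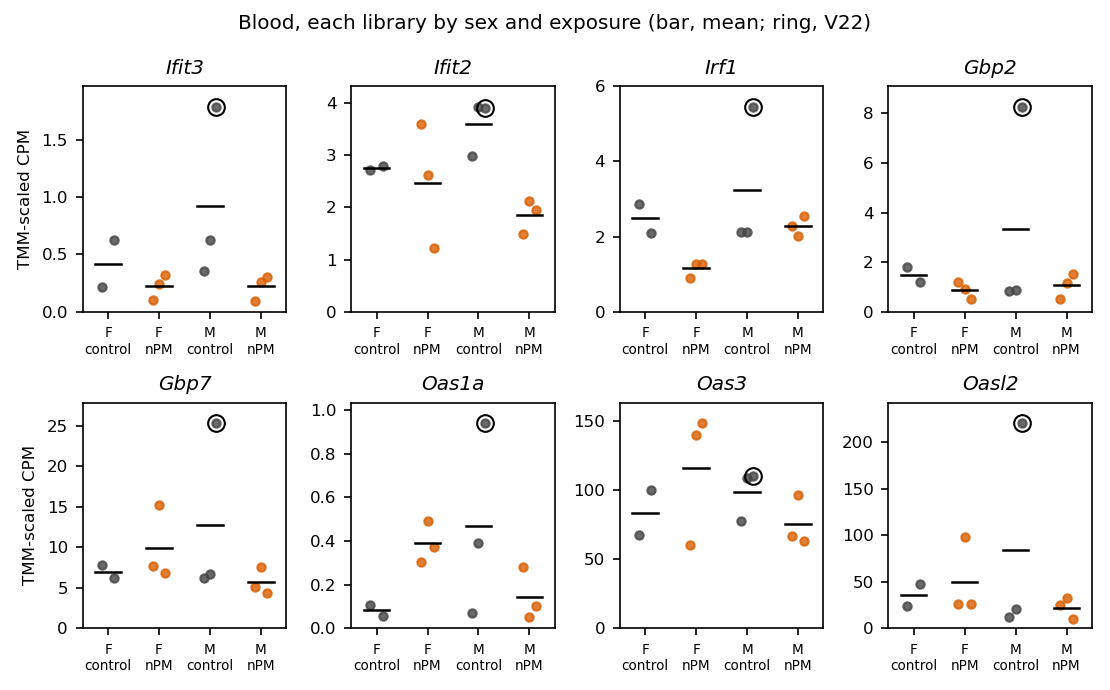
TMM-scaled CPM of 8 members in each blood library, by sex and exposure, with bars for group means and a ring around V22. V22 is far above the other control males for Ifit3, Irf1, Gbp2, Gbp7 and Oasl2, while the 3 nPM males lie below the 3 control males for Ifit2 and Ifit3.

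In cortex, 29 members were tested in 6 nPM and 6 control libraries. Of these 23 were lower after nPM, or 79.3% where 51.1% of all genes were lower, with a median log2 fold change of -0.11. None had an unadjusted p under 0.05, against 5.67% of all genes. None passed 0.005, against 0.614% of genes, and none passed the adjusted p of 0.05, against 0.0144%. DESeq2 and limma voom also called 0 at both cutoffs. Without V24, 18 of the 29 were higher and 11 lower, with a median of 0.05. No other cortex library left out brought the number lower below 20. V24 was picked in the same way as V22, with the same limit. With lane added, 22 were lower with a median of -0.11. Microglia markers were lower in 7 of 8 genes in the same fit, with a median of -0.14, and their summed level ran from 182 to 299 CPM in controls and from 187 to 253 after nPM. None of the 8 was at 0, and their part in the result was not tested.

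Xaf1 (chr11:72301629-72313733), which binds an inhibitor of apoptosis, had the smallest p in cortex. It ran from 0.441 through a median of 0.718 to 1.57 TMM-scaled CPM in the 6 controls, with V24 the highest, and from 0.293 through 0.523 to 0.802 in the 6 nPM libraries. The groups overlapped, with 3 nPM libraries below every control. The log2 fold change was -0.68 ± 0.34 (SE, edgeR unadjusted p = 0.0653, adjusted p = 0.863; exact permutation p = 0.126) and -0.36 without V24. Ifih1 ran from 5.32 through 6.49 to 7.30 in controls and from 5.02 through 6.10 to 6.37 after nPM, and its log2 fold change was -0.15 ± 0.10 (SE, edgeR unadjusted p = 0.165; exact permutation p = 0.115). Stat2 (chr10:128270576-128292849) ran from 15.1 through 18.5 to 19.2 in controls and from 14.3 through 16.2 to 18.5 after nPM, at -0.12 ± 0.08 (SE, edgeR unadjusted p = 0.173; exact permutation p = 0.165). Without V24 Stat2 was lower still, at -0.17 (edgeR unadjusted p = 0.0449, adjusted p = 0.551), and Ifih1 was at -0.10. The smallest p this permutation test can give is 0.00216. The further interferon-stimulated genes were lower in 29 of 48, with a median of -0.03, and without V24 in 19. Receptors and signal transducers were lower in 6 of 15 and sensors and adaptors in 8 of 17.

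Cortex was also fitted in each sex. In female cortex 19 of 30 members were lower, with a median of -0.06, and 2 had an unadjusted p under 0.05, or 6.67%, against 15.4% of all genes. None passed 0.005, where 4.02% of genes did, or the adjusted p of 0.05, where 1.11% did. Of all genes past 0.005 in this fit, 615 were lower and 258 higher. The share lower among all genes at any p is not given here, so the 19 of 30 has no such background. Stat2 was at 18.3, 18.7 and 19.2 TMM-scaled CPM in the control females and at 15.1, 16 and 16.5 in the nPM females, without overlap, for a log2 fold change of -0.25 ± 0.08 (SE, edgeR unadjusted p = 0.00969, adjusted p = 0.166). Oasl2 was at 0.479, 0.645 and 0.764 in the control females and at 0.877, 0.936 and 1.2 in the nPM females, without overlap, for 0.74 ± 0.32 (SE, edgeR unadjusted p = 0.0401, adjusted p = 0.297). The exact permutation p was 0.1 for both, the smallest possible. Of the further interferon-stimulated genes Ifitm2, a relative of Ifitm3, was at 0.66 (edgeR unadjusted p = 0.00128, adjusted p = 0.0698).

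In male cortex 24 of 30 members were lower, with a median of -0.25, and 1 had an unadjusted p under 0.05, or 3.33%, against 4.51% of all genes. None passed 0.005, where 0.318% of genes did, and neither a member nor any gene (0%) passed the adjusted p of 0.05. Of all genes past 0.005 in this fit, 29 were lower and 40 higher, and the share lower at any p is not given here. Xaf1 was at 0.583, 0.669 and, in V24, 1.57 TMM-scaled CPM in the control males and at 0.293, 0.354 and 0.660 in the nPM males, for a log2 fold change of -1.40 ± 0.54 (SE, edgeR unadjusted p = 0.0293, adjusted p = 0.962; exact permutation p = 0.2) and -0.61 without V24. Ifi44 was at 0.182, 0.669 and, in V24, 1.14 against 0.161, 0.264 and 0.352, for -1.55 ± 0.74 (SE, edgeR unadjusted p = 0.064; exact permutation p = 0.3) and -0.36 without V24. Without V24, 20 of the 30 members were higher and 10 lower, with a median of 0.19. Without V14, a control male with low values, 30 of the 32 members then tested were lower, and 4 had a p under 0.005, where 0.974% of all genes did.

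The cortex interaction was negative for 17 of 29 members, or 58.6% against 50.3% of all genes, with a median of -0.08. A single member reached an unadjusted p under 0.05, or 3.45% against 9.68% of all genes, and none passed 0.005 or the adjusted cutoff, where 1.35% and 0% of genes did. That member was Oasl2, whose control males were at 0.692, 0.797 and, in V24, 1.51 TMM-scaled CPM and whose nPM males were at 0.558, 0.644 and 1.06, against the female values above. The interaction was -1.30 ± 0.52 (SE, edgeR unadjusted p = 0.0264, adjusted p = 0.468) and -0.85 without V24. Xaf1 was at -1.24 ± 0.67 (SE, edgeR unadjusted p = 0.0863) and -0.62 without V24, with control females at 0.441, 0.767 and 0.993 and nPM females at 0.386, 0.694 and 0.802. Gbp3 was at -0.54 ± 0.29 (SE, edgeR unadjusted p = 0.0794) and -0.25 without V24, where V24 was at 6.37 TMM-scaled CPM and the other 11 cortex libraries at 3.05 to 5.04. Without V24 the interaction was positive for 21 of the 29 members, with a median of 0.22, and Trim30a, a regulator of innate signalling, was then at 1.45 (edgeR unadjusted p = 0.00165, adjusted p = 0.294) where it had been at 0.46.

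Male and female pups were compared in model 1. In cortex 17 of 29 members were higher in males, with a median log2 difference, male over female, of 0.05, and none had a p under 0.05, where 48.3% of all genes were higher in males and 6.09% had such a p. No member passed 0.005 or the adjusted p of 0.05, where 0.518% and 0.0336% of genes did. Ifi44 was at 1.08 ± 0.55 (SE, edgeR unadjusted p = 0.067) and Ifit2 at 0.14 ± 0.08 (SE, edgeR unadjusted p = 0.101). The cortex values of Ifit2 ran from 14.8 to 17.7 TMM-scaled CPM in females and from 16 to 19.3 in males, and those of Ifi44 from 0.134 to 0.574 in females and from 0.161 to 1.14 in males. Without V24, 11 of 29 were higher in males.

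In blood 25 of 30 members were higher in males, with a median of 0.23, and 3, or 10%, had a p under 0.05, where 53.6% of all genes were higher in males and 4.54% had such a p. No member passed 0.005 or the adjusted p of 0.05, where 0.351% and 0% of genes did. Irf1 was at 0.98 ± 0.35 (SE, edgeR unadjusted p = 0.012, adjusted p = 0.998) and Bst2, also named tetherin for holding budding virus at the cell surface, at 1.46 ± 0.54 (SE, edgeR unadjusted p = 0.0143, adjusted p = 0.998). Bst2 ran from 0.179 to 0.797 TMM-scaled CPM in females and from 0.637 to 1.18 in males, and Ifit3 was the other, at 1.64 ± 0.76 (SE, edgeR unadjusted p = 0.045). Without V22, 12 of 30 were higher in males, with a median of -0.12, and with V2 put back 29 were, with a median of 0.59.

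The members outside these results were these. Oas2, Oas3, Oasl1, Cxcl10 and Zbp1, a sensor of Z-form nucleic acid, lacked a count in at least 1 cortex library and were not tested there in model 1, and Mx1, Mx2, Ifi44 and Cxcl10 were not tested in blood. Irf8 and Irf9, transcription factors of myeloid cells and of the complex with STAT2, Usp18, which removes Isg15 and damps the receptor, the RNA sensors Ddx58 and Dhx58, and Bst2, Ifi35, Rtp4, Parp14 and Ifitm3 had no p under 0.05 for the exposure in model 1 of either tissue.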

How the data were processed

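RNA of 24 libraries was measured by ribosome-depleted RNA-seq. The authors trimmed the reads with Trimmomatic, used HISAT2 for the alignment to mm10 and featureCounts 1.5.0-p3 with the Gencode M11 annotation for the counting, per the labels and the study's methods. Their deposited table holds raw counts without normalization, for 48709 genes, and was used for every test. The deposited gene table gives coordinates and gene lengths, and a mean RPKM that the authors made and that was not used. No column lacked a sample.

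The tests were edgeR 4.0.16 quasi-likelihood F tests (two-sided, R 4.3.3) with TMM scaling, on genes that no library of the fit had at 0, adjusted by Benjamini-Hochberg over all genes tested. Model 1 contained the exposure, the sex and RIN. Model 2 also had the exposure-by-sex term, females being the reference. Fits within a sex kept RIN. The tissue fit used edgeR's filterByExpr and had tissue and sex. Cutoffs were an adjusted p of 0.05 and the study's unadjusted p of 0.005. The floor was 3 counts, log2 ratios of libraries used a pseudocount of 0.1 CPM and the seed was 20215. Single members were tested by exact two-sided permutation of the means.

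No 2 libraries were copies, with a chi-square per gene of at least 7.232 in cortex and 18.18 in blood, where sampling gives 1. V2 was left out of the blood fits. The alternatives were limma 3.58.1 voom, DESeq2 1.42.0, RLE scaling, 3 other count filters, no RIN, lane added, all 12 blood libraries, totals off the globin genes, each library left out in turn and, chosen after seeing the data, lane added to the tissue fit. The scripts were tested on simulated counts.

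The members and gene lists were chosen with earlier results of these data known. Named members are the 3 with the smallest p in each model 1 exposure and model 2 interaction term, the 2 with the smallest p in each fit of 1 sex and each sex term, the 3 highest in each tissue, the 3 most and 3 least different between tissues, and any past a cutoff. Genes of the other pathway lists are named when past a cutoff, at most 5 per list and comparison. Members named for the counts of p under 0.05 were added after their values were seen.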

Additional observations from a re-analysis of the deposited data

Results flagged for a closer look

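Over 17 named members and 67 groups of 5 or 6 libraries, 14 groups, or 20.9%, had 1 library far from the others. Chance gives about 1 group in 20 where groups are independent and their values normally distributed. These groups share the same few libraries, the values were not logged, and every flagged library was on the high side. The members were also named for small p or high levels, so the 20.9% is a description. The library was V22 in 7 of the 14, V24 in 3, V3 in 2 and another in the remaining 2. All values here are TMM-scaled CPM, and no cause was tested.

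Among blood controls V22 was high for Ifit3 (1.79 against 0.215 to 0.628), Irf1 (5.46 against 2.11 to 2.87), Oasl2 (220 against 11.8 to 47.1) and Ifi44 (0.179 against 0 to 0.0358). It was also high for Gbp2 (8.28 against 0.849 to 1.79), Gbp7 (25.3 against 6.15 to 7.85) and Xaf1 (5.64 against 0.778 to 1.49). Among cortex controls V24 was high for Oasl2 (1.51 against 0.479 to 0.797), Gbp3 (6.37 against 3.05 to 4.23) and Gbp7 (11.8 against 6.23 to 7.93).

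Among nPM blood libraries the female V3 was high for Oasl2 (97.7 against 9.50 to 32.3) and Gbp7 (15.2 against 4.34 to 7.68). Among nPM cortex libraries Ifit2 was high in the male V15 (19.3 against 15.6 to 16.9) and Gbp3 in the female V11 (5.04 against 3.99 to 4.32).

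The nPM effect on Oas1a in blood differed between the sexes by -4.06 on the log2 scale at an edgeR unadjusted p of 0.00298, with an adjusted p of 0.452, on counts of 1 to 21 per library.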

How the results depend on the processing

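No paired analysis was possible because the replicate numbers were given in accession order and the labels name no litter, animal or day that the groups share. Values below are numbers of members, tested with edgeR unless another tool is named. For the nPM effect in blood, 1 member passed the unadjusted p of 0.005. That number was 0 with limma voom, filterByExpr, no RIN, at least 10 counts in every library, lane added or all 12 blood libraries, and 5 with genes counted in any library, where 1 passed the adjusted p of 0.05 and 0.473% and 0.125% of all genes passed these cutoffs. It ran from 0 to 3 when each library was left out. For the blood interaction 1 became 2 with DESeq2, 0 with filterByExpr or at least 10 counts, and 7 with genes counted in any library, of which 2 passed the adjusted p (1.44% and 0.361% of all genes), and it ran from 0 to 3 over libraries left out. For male blood 2 became 0 with DESeq2, 1 with filterByExpr or the male contrast of model 2, and 9 with genes counted in any library, of which 6 passed the adjusted p (1.02% and 0.399% of all genes), and it ran from 0 to 8 over libraries left out. For male cortex 0 became 1 with genes counted in any library (1.37% of all genes) and ran from 0 to 4 over libraries left out. The cortex interaction and the sex term in blood ran from 0 to 1. Filters on low counts change which genes are tested, and the cause of the other moves was not tested.

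In the tissue comparison, library totals off the globin genes reversed Stat2 to -1.13, Mx2 to -0.54 and Ifit2 to -0.47. Over the counts of members past a cutoff, 313 alternative values equalled the main one or stayed within 1.5 times of it, and 45 moved. Most main counts were 0, and a 0 that stayed at 0 was scored as unmoved. The 313 therefore says little about the few counts above 0. Depth limits the weak members in blood, since Ifit3 and Oas1a had fewer than 12 counts in every library but V22.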
